A study of Homo sapiens with 4 samples.

Results

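The 31 genes described here encode enzymes of cholesterol synthesis, its sterol sensors and switches, and proteins that take up, move, store or export cholesterol. They were the rows of the deposited count table whose symbol stood on a list of 31 names, out of 42169 gene rows in all. The rule itself used no measured value, but the list was chosen with earlier results of these data known. Transcripts were counted in Huh7, a human hepatoma line, in a double knockout of TTP, encoded by ZFP36, and BRF1, encoded by ZFP36L1 (DKO, clone 18, 2 libraries), and in a control clone labelled wild type (clone 1, 2 libraries). Both clones grew in medium with fetal calf serum, and both were kept in DMSO for 3 h. The transcription blocker actinomycin D, dissolved in DMSO, was then added at 5 µg/ml, and cells were harvested after 10 min. Each genotype was 1 clone, so a difference between genotypes cannot be told apart from a difference between clones. Separate cultures for the 2 libraries of a clone are not stated in the labels, so p-values measure only how far these libraries spread, and that spread may be technical.

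Cholesterol is built in the cytosol and endoplasmic reticulum from acetyl-CoA, first by the mevalonate steps and then by squalene synthesis, ring closure and the trimming of lanosterol. When membranes of the endoplasmic reticulum run low in sterol, SCAP escorts the membrane-bound factor SREBP to the Golgi, where it is cut and released to the nucleus. There it switches on most of the synthesis genes and the genes of lipoprotein uptake, whereas INSIG proteins hold SCAP back when sterol is plentiful. The liver makes cholesterol, takes it up from lipoproteins and disposes of it in bile. TTP and BRF1 bind AU-rich elements in 3′ UTRs, whose core is UAUUUAU, and recruit the enzymes that shorten the poly(A) tail.

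Counts on genes totalled 10271428 and 16430228 in the DKO libraries, against 9685798 and 12507263 in the control libraries. A count of 3 was worth between 0.183 and 0.310 CPM, that is counts scaled to an equal gene total in every library. The spike-in (ERCC) RNA, added to 1 µg of total RNA, took 1.62% and 2.10% of counts in the DKO libraries, against 1.47% and 0.946% in the control libraries. ZFP36 mRNA had 37.5 and 36.2 CPM in DKO, against 30.0 and 23.3 CPM in control, and ZFP36L1 mRNA had 147 and 118 CPM in DKO, against 135 and 109 CPM in control, so the targeted transcripts were still counted in the DKO clone. The summed level of 10 hepatocyte and hepatoma markers was 28900 and 25400 CPM in DKO, against 27700 and 26900 CPM in control, and all 10 were tested. The sum covers opposite changes: AFP, the fetal albumin-like protein of hepatoma cells, was lower, with 3710 and 3390 CPM in DKO, against 7560 and 8080 CPM in control (log2 fold change -1.13, edgeR adjusted p = 0.0159). TTR, a thyroid hormone carrier, was higher, with 143 and 156 CPM in DKO, against 96.9 and 78.3 CPM in control (0.78, adjusted p = 0.0297). The call of AFP was lost without DKO replicate 2 (0.0501) and with the ERCC totals as library sizes (0.0824), and that of TTR without control replicate 2 (0.0956), without either DKO library (0.196 and 0.397) and with the ERCC totals (0.870). The other 8 did not pass. For 7 of the 10 the clones did not overlap, but the same held for 49.9% of all tested genes. The part of marker differences between the clones in the results that follow was not tested. Of 10 markers of leukocytes, fibroblasts, endothelium and red cells, 3 passed the filter on low counts, and their list summed to 10.5 and 12.1 CPM in DKO, against 11.7 and 17.3 CPM in control. CD3E, CDH5, VWF and HBB had 0 counts in all libraries. In bulk samples, fewer cells of a type and less RNA per cell of that type cannot be told apart.

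All 31 genes passed the filter on low counts and were tested with edgeR's quasi-likelihood test among 13359 genes, with p-values adjusted over all of them. In DKO, 3 of the 31 were higher (FDFT1, TM7SF2 and SC5D), 2 were lower (HMGCS1 and PMVK), and 26 did not pass the threshold of an adjusted p under 0.05. That is 16.1% of the 31, against 5.37% of all tested genes, of which 2.24% were higher and 3.14% lower. Because the list was chosen with earlier results of these data known, these shares are no test of the pathway. The 3 higher genes belonged to squalene synthesis and the sterol steps, and the 2 lower genes to the mevalonate steps. Over the 31 genes the median log2 fold change was -0.04, beside 0.00 over all tested genes, with 14 positive and 17 negative values. The 2 DKO libraries were above the 2 control libraries for 9 genes and below them for another 9, together 58.1% of the 31. The same held for 49.9% of all tested genes, 23.7% with DKO above and 26.2% with DKO below.

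**Figure D1:**
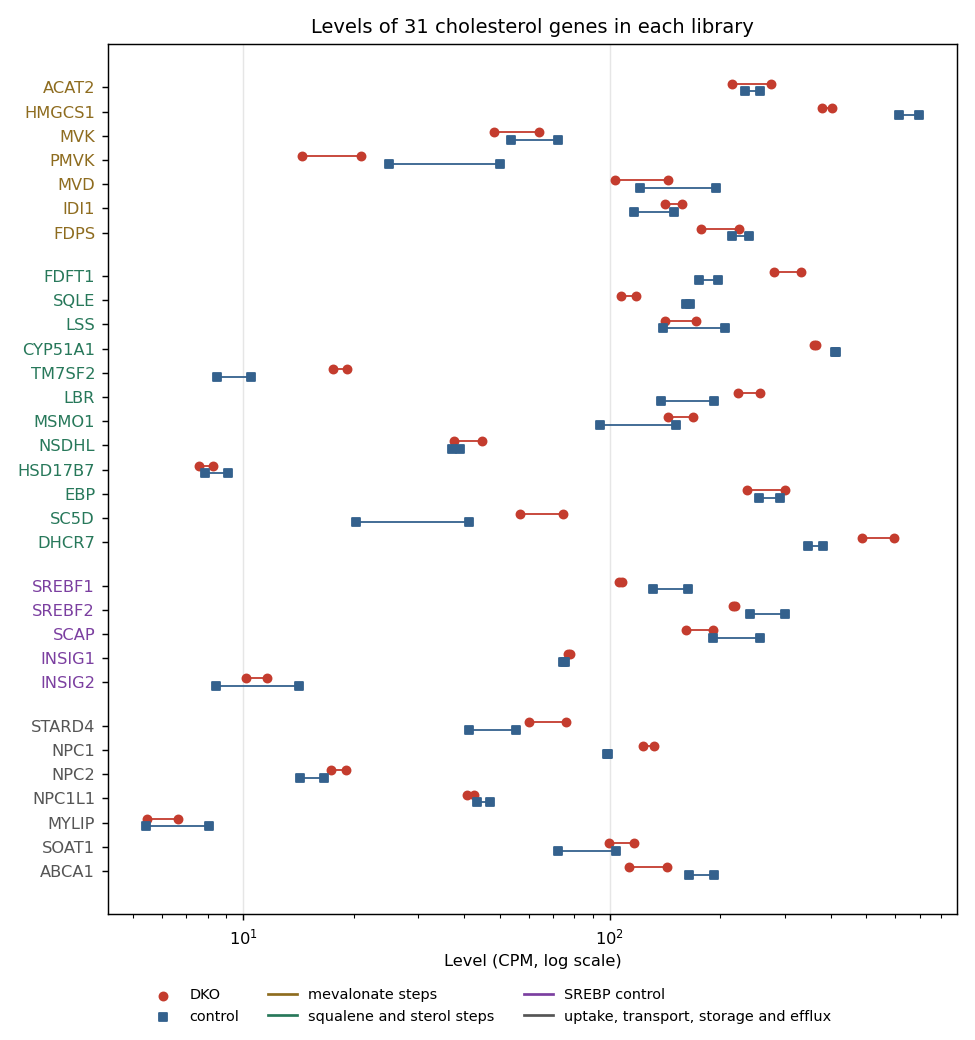
CPM of each of the 31 genes in the 2 DKO and the 2 control libraries, on a log axis, with the genes ordered by their role. Levels ran from 5.44 CPM for MYLIP to 696 CPM for HMGCS1, each in a control library, and for 13 genes the libraries of the clones overlapped.

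The promoters of 4 of the 5 genes past the threshold are shown because the factors that act on this pathway are known to bind there. RefSeq's table (GRCh38.p14) matched 28 of the 31 genes, and the first window listed for each is given as the 250 bases before RefSeq's start, on the gene's strand, 5′ to 3′. For all 4 genes that start lies inside the longer gene span of GENCODE 29, from which gene positions are taken in the text, so the windows overlap those spans. The search on both strands covered 3 short motifs, none of which holds another, and capitals mark their matches: the NF-Y box CCAAT, the E-box CACGTG, and the core CACNCCAC of the sterol regulatory element bound by SREBP.
HMGCS1 promoter (chr5:43313413-43313662, minus strand): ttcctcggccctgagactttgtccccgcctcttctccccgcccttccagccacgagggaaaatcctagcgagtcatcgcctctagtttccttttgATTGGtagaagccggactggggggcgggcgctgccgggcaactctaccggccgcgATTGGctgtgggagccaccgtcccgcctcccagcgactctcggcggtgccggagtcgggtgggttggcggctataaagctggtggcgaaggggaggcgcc
PMVK promoter (chr1:154936720-154936969, minus strand): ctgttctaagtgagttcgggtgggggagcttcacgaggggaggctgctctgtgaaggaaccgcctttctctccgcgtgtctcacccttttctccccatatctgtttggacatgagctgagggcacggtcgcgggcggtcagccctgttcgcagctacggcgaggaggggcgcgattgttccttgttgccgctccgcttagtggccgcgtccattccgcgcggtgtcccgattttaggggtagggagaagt
TM7SF2 promoter (chr11:65111622-65111871, plus strand): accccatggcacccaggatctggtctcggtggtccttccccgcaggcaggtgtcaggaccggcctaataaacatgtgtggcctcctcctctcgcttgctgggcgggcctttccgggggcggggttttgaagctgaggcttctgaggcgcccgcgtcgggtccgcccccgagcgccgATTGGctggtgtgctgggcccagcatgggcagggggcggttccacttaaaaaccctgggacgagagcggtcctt
SC5D promoter (chr11:121292521-121292770, plus strand): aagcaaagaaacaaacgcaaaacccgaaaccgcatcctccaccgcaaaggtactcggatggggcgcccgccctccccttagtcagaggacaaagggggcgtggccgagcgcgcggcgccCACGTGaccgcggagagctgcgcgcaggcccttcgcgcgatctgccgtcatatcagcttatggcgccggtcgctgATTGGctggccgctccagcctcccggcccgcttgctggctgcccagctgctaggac
The HMGCS1 window held 2 CCAAT boxes, that of TM7SF2 held 1, and that of SC5D held 1 CCAAT box and 1 E-box. The PMVK window held none of the motifs. Counting every window listed for a gene, CCAAT stood in 20 of the 28 matched genes (71.4%), beside 37.0% of 27305 genes with a listed promoter and 41.7% of the tested genes among them. CACNCCAC stood in 5 of the 28 (17.9%), in ABCA1, IDI1, INSIG1, SC5D and SREBF2, with 5.89% and 6.48% for the same 2 backgrounds. For SC5D that match lay in the other of its 2 listed windows. CACGTG stood in 4 of the 28 (14.3%), beside 7.73% and 11.4%. These are matches of letters and not measured binding sites.

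The AU-rich core that TTP and BRF1 are known to bind was searched in the longest 3′ UTR of each gene, and 6 of its matches are shown, with UAUUUAU in capitals.
SC5D site: auucuauaagcUAUUUAUguaaaaucaaua
SREBF1 site: aaaaaugaaauUAUUUAUaaucug
INSIG1 first site: aauaggaauaaUAUUUAUccaaaagauuuu
INSIG1 second site: uaucucuuaaaUAUUUAUuuuuuuuaacgu
STARD4 first site: gcuuuuguuuuUAUUUAUuuuuugccacug
CYP51A1 first site: caguuuauuauUAUUUAUcugggcaauuau
At least 1 UAUUUAU stood in 7 of the 31 genes (22.6%): STARD4 with 4, CYP51A1 and INSIG1 with 2 each, and FDFT1, SC5D, SREBF1 and MYLIP with 1 each. Among tested protein-coding genes with a 3′ UTR, 4296 of 11889 (36.1%) held it. The longer form UUAUUUAUU stood in STARD4 only, that is in 3.23% of the 31 genes beside 9.38% of the tested genes, and it is the first STARD4 site above. The median 3′ UTR length was 1214 bases for the 31 genes and 1413 bases for all of them. The median log2 fold change was 0.05 for the 7 genes with the core and -0.07 for the 24 without, beside 0.04 and -0.03 over all tested genes. Of the 7 genes, 2 were higher in DKO (FDFT1 and SC5D) and none was lower, whereas of the 24 others 1 was higher (TM7SF2) and 2 were lower (HMGCS1 and PMVK). Over all tested protein-coding genes, 90 with the core were higher and 120 lower, and 182 without it were higher and 281 lower. The part of the core in these calls was not tested.

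The 7 enzymes of the mevalonate steps covered here act on the path from acetyl-CoA to farnesyl diphosphate. In DKO, 2 of them were lower and none was higher, with a median log2 fold change of -0.17 over the 7, and their summed level was 1120 and 1250 CPM in DKO, against 1490 and 1540 CPM in control. HMGCS1, the cytosolic synthase that makes HMG-CoA, had 404 and 380 CPM in the DKO libraries, against 696 and 614 CPM in the control libraries. Both DKO libraries lay well below both control libraries, and the gene made up more of the fall in the summed level than all the others together. The means were 392 ± 17.0 CPM in DKO and 655 ± 57.9 CPM in control (SD, n = 2 each), a log2 fold change of -0.73 (SE 0.20, 95% interval -1.16 to -0.30, edgeR adjusted p = 0.0474). HMGCS1 lies on the minus strand of chromosome 5 from 43289395 to 43313512 (hg38, GENCODE 29).

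PMVK, which adds the second phosphate to mevalonate, had 14.5 and 20.9 CPM in the DKO libraries, against 25.0 and 50 CPM in the control libraries. The clones did not overlap, but the control libraries stood further apart from each other than the lower of them stood from the DKO libraries, and control replicate 2 was the high one. The means were 17.7 ± 4.55 CPM in DKO and 37.5 ± 17.7 CPM in control, with a log2 fold change of -1.07 (SE 0.30, 95% interval -1.71 to -0.43, edgeR adjusted p = 0.0499). Without control replicate 2 the log2 fold change was -0.44 with an adjusted p of 0.372, and without control replicate 1 it was -1.50 with an adjusted p of 8.04e-09. PMVK lies on the minus strand of chromosome 1 from 154924734 to 154936991.

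The other mevalonate enzymes overlapped between the clones. ACAT2, the thiolase that joins acetyl-CoA units, had 215 and 275 CPM in DKO, against 233 and 257 CPM in control (log2 fold change 0.01). MVK, the mevalonate kinase, had 48.4 and 64.1 CPM in DKO, against 53.7 and 72.0 CPM in control (-0.15). MVD, the decarboxylase that makes isopentenyl diphosphate, had 103 and 144 CPM in DKO, against 121 and 195 CPM in control (-0.35). In all 3 genes the libraries of a clone were further apart than the means of the clones. IDI1, the isomerase, had 157 and 141 CPM in DKO, against 150 and 116 CPM in control (0.18). FDPS, the farnesyl diphosphate synthase, had 177 and 225 CPM in DKO, against 215 and 240 CPM in control (-0.17). Their edgeR adjusted p-values ran from 0.463 for MVD to 0.983 for ACAT2. ACAT2 shares 397 exon bases with TCP1 and 1141 with SOD2, and MVK shares 306 with MMAB, each on the opposite strand. TCP1 had 416 and 516 CPM in DKO, against 470 and 520 CPM in control, SOD2 had 105 and 107 CPM in DKO, against 119 and 121 CPM in control, and MMAB had 39.5 and 42.8 CPM in DKO, against 39.6 and 35.2 CPM in control. How the authors' counting treated strand is not stated, so reads of such neighbours may be included. Antisense RNAs that overlap HMGCS1, FDFT1 and others of the 31 genes had at most 13 counts in any library.

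**Figure D2:**
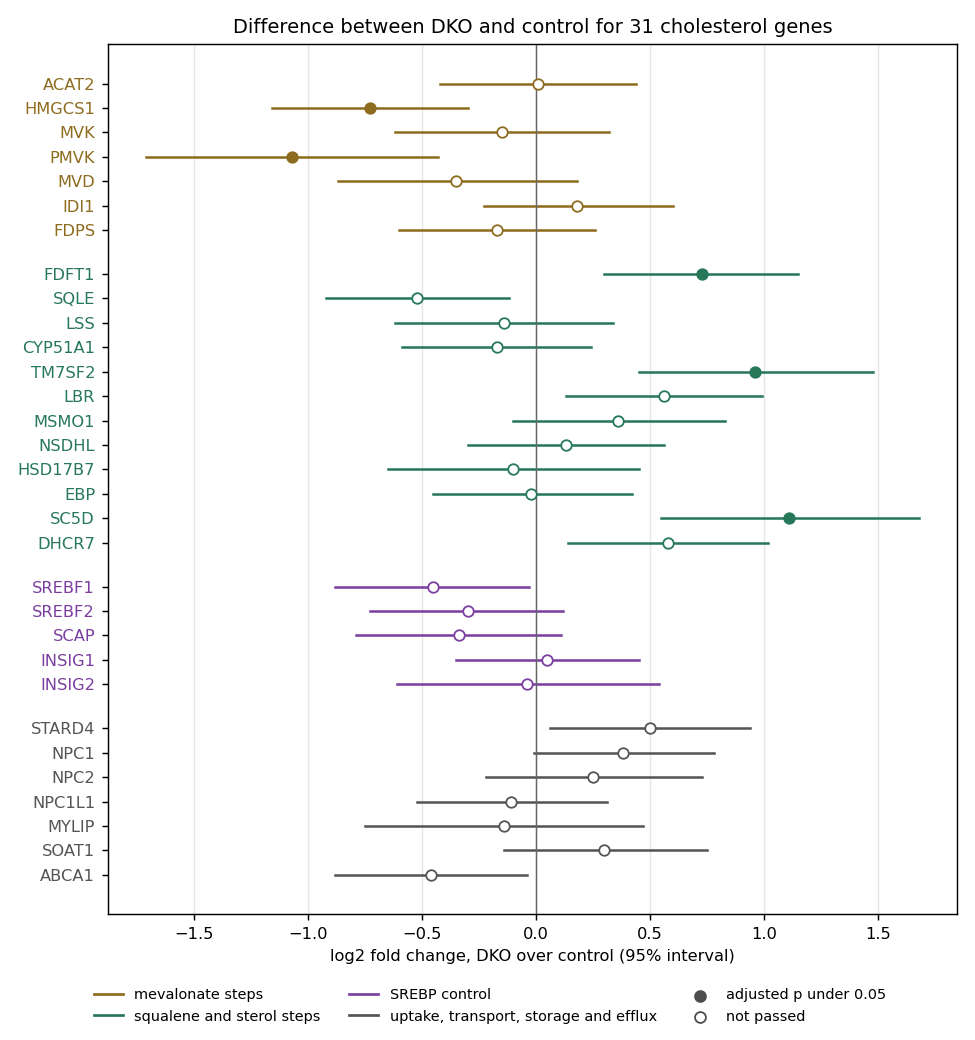
Log2 fold change of the 31 genes, DKO over control, with 95% intervals from edgeR, grouped by role; filled points had an adjusted p under 0.05 and open points did not. The 3 filled points with positive values are sterol-step genes (0.73 to 1.11) and the 2 with negative values are mevalonate genes (-0.73 and -1.07).

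Squalene synthesis and the sterol steps were covered by 12 genes, of which 3 were higher in DKO and none was lower. Their median log2 fold change was 0.25, with values from -0.52 to 1.11, and they summed to 2190 and 2360 CPM in DKO, against 1970 and 1920 CPM in control. SC5D, the desaturase that introduces a double bond into the sterol ring late in synthesis, had 74.5 and 57.0 CPM in the DKO libraries, against 41.4 and 20.3 CPM in the control libraries. Every DKO value was above every control value, and the control libraries differed from each other by about as large a factor as the clones did. The means were 65.7 ± 12.4 CPM in DKO and 30.9 ± 14.9 CPM in control, with a log2 fold change of 1.11 (SE 0.27, 95% interval 0.55 to 1.68, edgeR adjusted p = 0.0243). Control replicate 2 was the low library, and without it the log2 fold change was 0.70 with an adjusted p of 0.0560; without control replicate 1 it was 1.66 (9.17e-09). SC5D, whose UAUUUAU site and E-box are printed above, lies on the plus strand of chromosome 11 from 121292453 to 121308694.

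TM7SF2 and LBR are a pair of sterol reductases that can carry out the same step on the lanosterol path, and LBR also tethers heterochromatin to the inner nuclear membrane. TM7SF2 had 17.6 and 19.2 CPM in the DKO libraries, against 8.47 and 10.5 CPM in the control libraries, and the clones were clearly apart. Its means were 18.4 ± 1.14 CPM in DKO and 9.47 ± 1.42 CPM in control, with a log2 fold change of 0.96 (SE 0.24, 95% interval 0.45 to 1.48, edgeR adjusted p = 0.0306). LBR had 257 and 224 CPM in DKO, against 192 and 138 CPM in control, again without overlap, but its log2 fold change of 0.56 had an adjusted p of 0.129. Per kilobase of exon, LBR was at 45.8 CPM in DKO and 31.3 CPM in control, whereas TM7SF2 was at 5.41 CPM in DKO and 2.78 CPM in control, so LBR was the more abundant reductase in both clones. TM7SF2 lies on the plus strand of chromosome 11 from 65111845 to 65116384 and shares 16 exon bases with VPS51, which had 59.8 and 80.2 CPM in DKO, against 52.9 and 83.2 CPM in control.

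FDFT1, the squalene synthase that commits farnesyl diphosphate to sterols, had 281 and 332 CPM in the DKO libraries, against 175 and 197 CPM in the control libraries. Its clones did not overlap, and the libraries within each clone were close together. The means were 306 ± 36.3 CPM in DKO and 186 ± 15.5 CPM in control, with a log2 fold change of 0.73 (SE 0.20, 95% interval 0.30 to 1.15, edgeR adjusted p = 0.0456). SQLE, the squalene epoxidase that acts next and is a known control point of the pathway, had 118 and 107 CPM in DKO, against 165 and 161 CPM in control. Its DKO libraries lay below its control libraries, opposite to FDFT1, but its log2 fold change of -0.52 (95% interval -0.92 to -0.12) had an adjusted p of 0.125. LSS, the cyclase that closes the ring to lanosterol, had 141 and 172 CPM in DKO, against 140 and 206 CPM in control, and the clones overlapped (-0.14).

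CYP51A1, which removes a methyl group from lanosterol, had 364 and 360 CPM in DKO, against 414 and 410 CPM in control. The libraries within a clone were nearly equal and the clones did not overlap, yet the log2 fold change was -0.17 with an adjusted p of 0.672. DHCR7, which reduces the last sterol intermediate to cholesterol, had 487 and 595 CPM in DKO, against 382 and 347 CPM in control, also without overlap, with a log2 fold change of 0.58 (95% interval 0.14 to 1.02, adjusted p = 0.119). MSMO1, the sterol methyl oxidase, had 168 and 144 CPM in DKO, against 151 and 93.9 CPM in control (0.36), and the clones overlapped. NSDHL and HSD17B7, which act with it in demethylation, also overlapped. NSDHL had 37.5 and 44.7 CPM in DKO, against 38.9 and 37.0 CPM in control (0.13). HSD17B7 had 8.28 and 7.55 CPM in DKO, against 7.85 and 9.11 CPM in control (-0.10), and near-identical pseudogene copies make its level uncertain. EBP, the sterol isomerase, had 236 and 300 CPM in DKO, against 255 and 291 CPM in control (-0.02). Per kilobase of exon, DHCR7 was the highest of the 31 genes in DKO at 130 CPM, followed by EBP at 111, CYP51A1 at 101 and HMGCS1 at 83.3 CPM. In control the order of the same 4 genes was HMGCS1 at 139, CYP51A1 at 115, EBP at 113 and DHCR7 at 87.7 CPM. EBP and CYP51A1, neighbours in both orders, were not tested against each other. CYP51A1 shares 2844 exon bases with AC000120.2 on the same strand, which has no row under that symbol in the deposited counts. The authors' annotation is not stated, so the level of CYP51A1 and its place in these orders are uncertain.

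SREBP control was covered by 5 genes. None of them passed the threshold with DESeq2, limma-voom or edgeR with clone as its only term, on all 4 libraries. With a further term for replicate number (the replicate block), edgeR called SREBF1 (adjusted p = 0.00197) and SCAP (0.0272) lower. That fit called 30.1% of all tested genes. At an unadjusted p under 0.05 edgeR with clone alone gave 1 lower and none higher, beside 1279 higher and 1414 lower of 13359 tested genes. Over the 5 genes the median log2 fold change was -0.30, and they summed to 575 and 604 CPM in DKO, against 653 and 804 CPM in control. SREBF1, which encodes SREBP-1, had 108 and 106 CPM in DKO, against 131 and 163 CPM in control. SREBF2, which encodes the SREBP that mainly drives cholesterol genes, had 217 and 220 CPM in DKO, against 241 and 300 CPM in control. SCAP, the escort protein, had 161 and 191 CPM in DKO, against 191 and 257 CPM in control. In these 3 genes both DKO libraries were below both control libraries; for SCAP the nearest libraries were both at 191 CPM, and control replicate 2 was the highest library. Their log2 fold changes were -0.45, -0.30 and -0.34, with edgeR adjusted p-values of 0.215, 0.421 and 0.396. INSIG1, itself a gene that SREBP switches on, had 77.6 and 76.8 CPM in DKO, against 74.5 and 75.6 CPM in control. All 4 libraries were nearly equal, and the 95% interval of its log2 fold change of 0.05 ran from -0.35 to 0.45. INSIG2 had 11.6 and 10.2 CPM in DKO, against 14.2 and 8.40 CPM in control, so that the control libraries enclosed both DKO libraries (-0.04, interval -0.61 to 0.54). SREBF1 shares 556 exon bases with RAI1 on the opposite strand, which had 131 and 107 CPM in DKO, against 120 and 140 CPM in control.

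**Figure D3:**
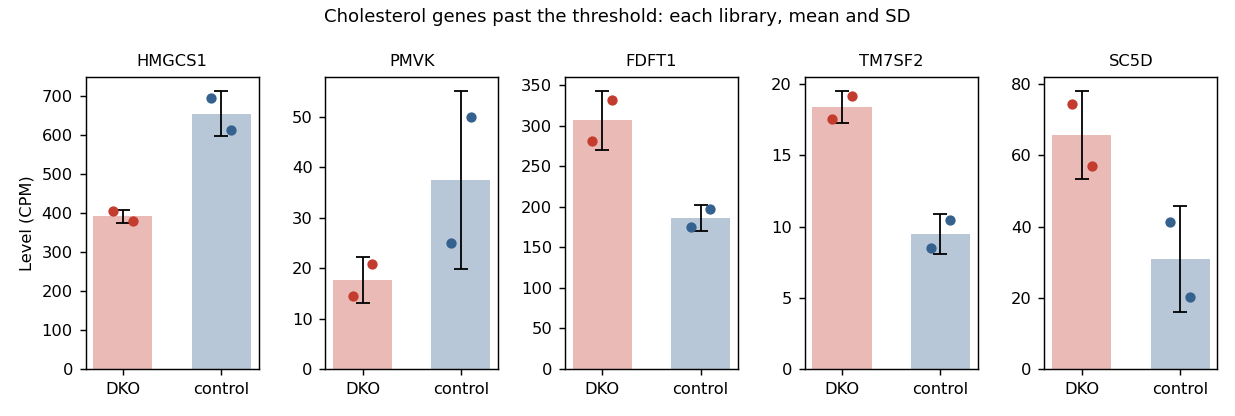
CPM of the 5 genes past the threshold, 1 panel each with a linear axis that starts at 0; points are libraries, bars are means and error bars are SD (n = 2), with DKO left of control. HMGCS1 and PMVK are lower in DKO and FDFT1, TM7SF2 and SC5D higher, with no overlap between the clones, and the control libraries of PMVK (25.0 and 50 CPM) and SC5D (41.4 and 20.3 CPM) stand far apart.

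Uptake, transport, storage and efflux were covered by 7 genes. None passed the threshold with DESeq2, limma-voom or edgeR with clone as its only term, on all 4 libraries. With the replicate block, edgeR called STARD4 (adjusted p = 0.000755), NPC1 (0.00857) and SOAT1 (0.036) higher, and ABCA1 (0.000924) lower. The same fit called 30.1% of all tested genes. At an unadjusted p under 0.05 edgeR with clone alone gave 1 higher and 1 lower, beside 1279 higher and 1414 lower of 13359 tested genes. Over the 7 genes the median log2 fold change was 0.25. They summed to 534 and 461 CPM in DKO, against 519 and 442 CPM in control. STARD4, a cytosolic sterol carrier and a known SREBP target with 4 UAUUUAU sites, had 76.0 and 60.1 CPM in DKO, against 55.5 and 41.4 CPM in control (0.50, adjusted p = 0.181). NPC1, the lysosomal membrane protein that exports cholesterol from lysosomes, had 132 and 123 CPM in DKO, against 99.1 and 97.9 CPM in control (0.38, adjusted p = 0.265). RMC1, which has no row under that symbol in the deposited counts, shares 604 exon bases on the opposite strand with NPC1. NPC2, its soluble partner, had 17.3 and 19.1 CPM in DKO, against 16.6 and 14.3 CPM in control (0.25). It shares 103 exon bases with ISCA2 on the opposite strand, which had 6.33 and 7.0 CPM in DKO, against 4.23 and 3.92 CPM in control. For STARD4, NPC1 and NPC2 every DKO library lay above every control library, without passing the test with clone alone on all 4 libraries. ABCA1, the exporter that loads cholesterol onto apolipoprotein, had 143 and 113 CPM in DKO, against 192 and 164 CPM in control, and lay below in both DKO libraries (-0.46, adjusted p = 0.198). NPC1L1, the importer of sterol from bile and gut, also lay below, by little: it had 42.5 and 40.8 CPM in DKO, against 43.3 and 47.0 CPM in control (-0.11). SOAT1, which esterifies cholesterol for storage, and MYLIP, the ubiquitin ligase that removes lipoprotein receptors, overlapped between the clones. SOAT1 had 116 and 99.2 CPM in DKO, against 104 and 72.0 CPM in control (0.30). MYLIP had 6.62 and 5.48 CPM in DKO, against 8.05 and 5.44 CPM in control (-0.14).

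How many of the 31 genes passed depended on the scaling, the tool and single libraries. DESeq2 called the same 5 genes (4.65% of all tested genes called), as did edgeR with RLE size factors (5.41%) and edgeR without the filter on low counts (5.39%). Limma-voom called 4 of them and not PMVK (adjusted p = 0.0745, 5.25% of all genes called). With the ERCC totals as library sizes, PMVK alone passed at a log2 fold change of -1.89 (adjusted p = 0.0245), and 2.46% of all tested genes were called, 22 higher and 307 lower, against 299 higher and 419 lower under TMM scaling. That scaling moved the median of all genes to -0.68 and the median of the 31 genes to -0.75. The log2 fold change was then -1.39 for HMGCS1, 0.01 for FDFT1, 0.24 for TM7SF2 and 0.55 for SC5D, and 11 genes that had not passed changed sign, LBR, DHCR7, STARD4 and NPC1 among them. Higher and lower therefore mean relative to the typical gene of these libraries.

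No gene of the 31 passed in every fit that left out 1 library, although all 5 kept their sign in each. A clone left with 1 library was assumed to vary like the other clone. Without control replicate 1, 8 of the 31 passed, beside 15.6% of all tested genes: PMVK, MVD and SREBF1 as lower and TM7SF2, LBR, MSMO1, SC5D and STARD4 as higher. Without control replicate 2, 3 passed (HMGCS1, FDFT1 and TM7SF2), beside 5.35% of all genes. Without DKO replicate 1 none passed, beside 1.68% of all genes, and the adjusted p-values of the 5 genes ran from 0.117 for TM7SF2 to 0.405 for HMGCS1. Without DKO replicate 2, PMVK and SC5D passed, beside 1.61% of all genes. The median absolute log2 ratio between libraries of a clone was 0.22 for the 31 genes in DKO and 0.31 in control, and over all tested genes it was 0.22 in DKO and 0.30 in control.

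**Figure D4:**
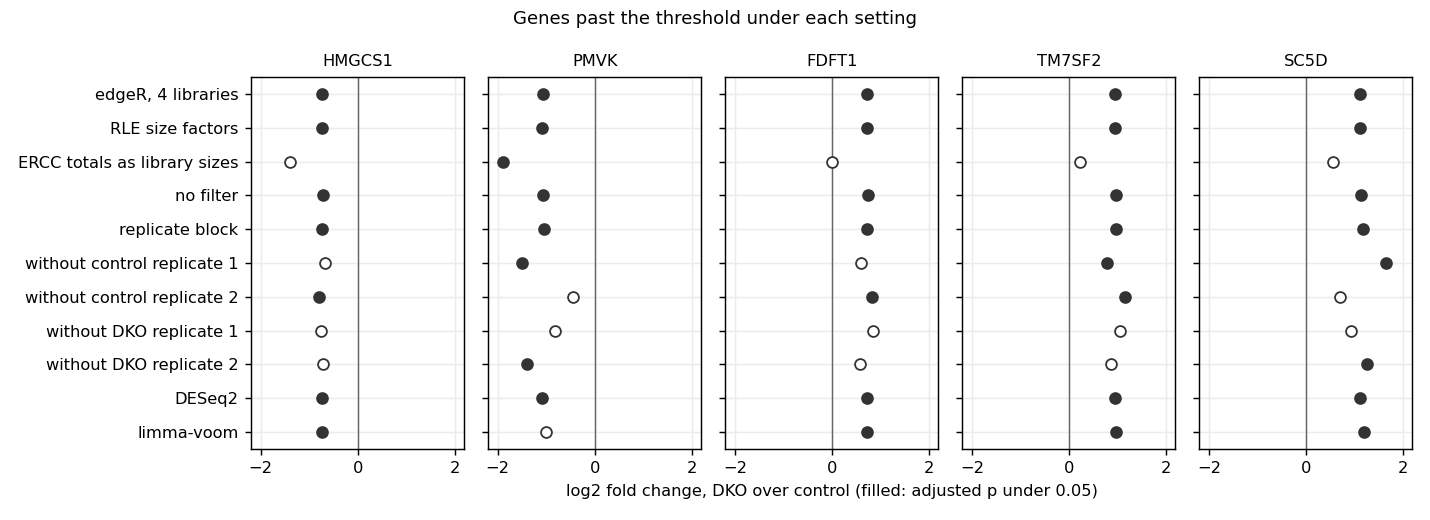
Log2 fold change, DKO over control, of the 5 genes past the threshold under TMM scaling with edgeR and under each alternative; filled points had an adjusted p under 0.05 and open points did not. All 5 genes keep their sign throughout, FDFT1 reaches 0.01 with the ERCC totals, and with DKO replicate 1 left out every point is open.

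Several of the 31 genes lay among neighbours whose log2 fold changes had the same sign. For each gene the median log2 fold change of the 50 nearest tested genes on its chromosome, 25 on each side, was taken where that many were present. Over 13117 tested genes with a position this neighbour median was between -0.34 (5th percentile) and 0.24 (95th percentile). SC5D had a neighbour median of 0.56, FDFT1 of 0.29 and LBR of 0.27, all above the 95th percentile. SQLE had -0.58, HMGCS1 had -0.41 and SCAP had -0.64, all below the 5th percentile. TM7SF2 and PMVK, at 0.10 and -0.18, were between these bounds. SQLE and SCAP had log2 fold changes of -0.52 and -0.34, no further from 0 than their neighbours'. FDFT1, at 0.73, HMGCS1, at -0.73, and SC5D, at 1.11, were further from 0 than theirs. FDFT1 (11795573 to 11839309) and SQLE (124998497 to 125022283) are both on chromosome 8, far apart. Copy number was not measured, and its part in these values was not tested.

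**Figure D5:**
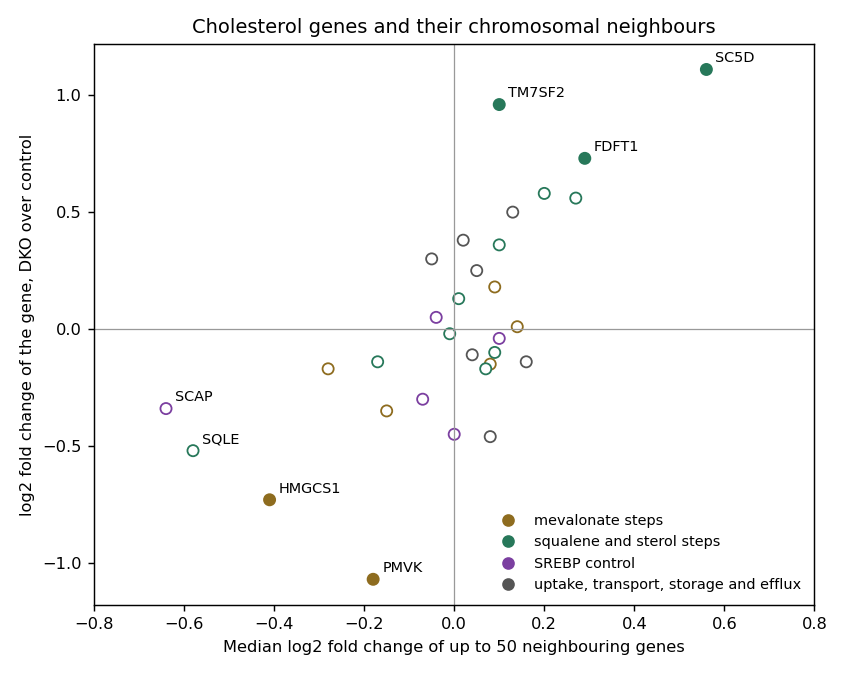
Log2 fold change of each of the 31 genes, DKO over control, against the median log2 fold change of its up to 50 nearest tested genes; filled points had an adjusted p under 0.05 and open points did not. SC5D stands at 0.56 and HMGCS1 at -0.41 on the neighbour axis, whereas TM7SF2 and PMVK stand at 0.10 and -0.18.

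The wider pathway was read from 8 lists of 118 further genes, of which 106 were tested. Of these, 4 were higher and 1 lower in DKO, together 4.72%, with a median log2 fold change of 0.02, so the share called was close to the 5.37% of all tested genes. Among 19 genes that process SREBP or degrade the sterol sensors in the endoplasmic reticulum, MBTPS2, the protease that makes the second cut in SREBP, had 114 and 103 CPM in DKO, against 67.0 and 56.0 CPM in control. Both DKO libraries were far above both control libraries, and the log2 fold change was 0.83 (SE 0.19, edgeR adjusted p = 0.0222). The other 18 did not pass, and the list's median was 0.12. Among 16 genes listed as fatty acid targets of SREBP, FADS1, a fatty acid desaturase, had 343 and 340 CPM in DKO, against 232 and 165 CPM in control (0.80, adjusted p = 0.0335). The other 15 did not pass, and the median was 0.05.

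Among 17 tested genes of lysosomal and intracellular cholesterol transport, OSBPL1A, an oxysterol-binding protein, had 4.97 and 4.56 CPM in DKO, against 10.6 and 9.27 CPM in control (-1.05, adjusted p = 0.0316; DESeq2 0.0680). Among 8 tested efflux genes and targets of the sterol receptor LXR, ABCG8, one part of the transporter that secretes sterol into bile, had 14 and 23 counts in DKO, against 2 and 0 counts in control (edgeR adjusted p = 0.0131, DESeq2 0.0789). It passed the filter on low counts through the DKO libraries alone, so its place among the higher genes is given as a count and not as support. Among 10 tested electron donors and accessory enzymes, ACAT1, the mitochondrial acetoacetyl-CoA thiolase, had 32.5 and 32.8 CPM in DKO, against 20.1 and 17.5 CPM in control (0.81, adjusted p = 0.0359). The medians of these 3 lists were 0.03, 0.26 and 0.32.

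The calls in the wider lists also depended on single libraries and on the scaling. Without DKO replicate 1, FADS1 had an adjusted p of 0.239, ACAT1 of 0.270, MBTPS2 of 0.305 and OSBPL1A of 0.197, and ABCG8 alone passed. Without DKO replicate 2 none of the 5 genes passed: FADS1 had 0.264, ACAT1 0.344, MBTPS2 0.192, OSBPL1A 0.295 and ABCG8 0.0790. Without control replicate 2, FADS1 had 0.179, ACAT1 0.0649 and ABCG8 0.0639, whereas MBTPS2 and OSBPL1A passed. With the ERCC totals the log2 fold change was 0.16 for FADS1, 0.14 for ACAT1 and 0.18 for MBTPS2, none of which passed, and OSBPL1A had an adjusted p of 0.0561.

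In the remaining 3 lists no gene passed with DESeq2 or limma-voom on all 4 libraries. None did with edgeR on all 4 libraries, using TMM scaling, the filter and clone as the only term. With the replicate block added, 2 genes of lipoprotein uptake, 3 of the isoprenoid branch and 3 of esterification and oxidation passed. That fit called 30.1% of all tested genes. Under other edgeR settings some did. Without the filter GGPS1 passed (edgeR adjusted p = 0.0286), beside 5.39% of all tested genes. With the ERCC totals 1 gene of esterification and oxidation passed, beside 2.46% of all tested genes. Some genes of each list also passed when control replicate 1 was left out. Of 13 tested genes of lipoprotein uptake, TMEM97, a sterol-regulated membrane protein, had the smallest adjusted p (0.0906), with 314 and 318 CPM in DKO, against 233 and 191 CPM in control (0.59). Of 15 genes of the isoprenoid branch, GGPS1, which makes geranylgeranyl diphosphate, had 50.9 and 43.7 CPM in DKO, against 36.8 and 21.6 CPM in control (0.72, adjusted p = 0.0921). Of 8 tested genes of cholesterol esterification and oxidation, LCAT, which esterifies cholesterol on lipoproteins, had 11.3 and 11.7 CPM in DKO, against 8.26 and 5.84 CPM in control (0.73, adjusted p = 0.121). Both DKO libraries were above both control libraries in each of these 3 genes. The neighbour median of GGPS1 was 0.28, above the 95th percentile, and those of TMEM97 and LCAT were 0.11 and -0.07. At an unadjusted p under 0.05, edgeR gave 1 higher and 1 lower for lipoprotein uptake and 2 higher and none lower for the isoprenoid branch. It gave 1 higher and 1 lower for esterification and oxidation, beside 1279 higher and 1414 lower of 13359 tested genes. The medians of the 3 lists were -0.07, -0.03 and -0.19.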

How the data were processed

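Total RNA of Huh7 cells was measured in 2 DKO and 2 control libraries. Per the labels' protocols, ERCC spike-in RNA was added to 1 µg of total RNA before ribosomal RNA was depleted, libraries kept the strand, and 80 bases were read from 1 end. The authors deposited whole-number read counts per gene, not normalized. Tools named in the submitters' processing notes are STAR 2.5.3a, Subread 1.6.3 with featureCounts, and DESeq2, on hg38. For the annotation, the strand setting and multiply matching reads, nothing is stated, so genes with near-identical copies or an overlapping neighbour are uncertain.

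The 92 ERCC rows were kept out of library sizes and tests. Levels are CPM, the counts scaled to an equal gene total in every library. The fit used edgeR 4.0.16 (R 4.3.3): filterByExpr, TMM factors, and the quasi-likelihood test over the 2 DKO and 2 control libraries, with no term besides group. P-values were adjusted by Benjamini-Hochberg over the 13359 tested genes, and an adjusted p under 0.05 was called higher or lower. SE is the log2 fold change divided by the square root of F, and 95% intervals use edgeR's degrees of freedom. For 1 gene, an exact 2-sided permutation test of 2 libraries against 2 cannot go below 0.333. The script was tested on simulated counts. Alternatives were RLE size factors, ERCC totals, no filter, a replicate block, each library left out, DESeq2 1.42.0 and limma-voom (limma 3.58.1). The chi-square per degree of freedom between libraries of a clone was 27.1 in DKO and 33.6 in control, so no library was a duplicate.

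Symbols were matched to GENCODE 29, where 40718 gene rows matched 1 gene. All 31 genes are named; of each wider list every gene past the threshold is named, or else the gene with the smallest adjusted p. The 31 genes and the lists were chosen with earlier results of these data known, and some genes of the pathway are not reported here. Reads carried no molecular identifiers.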

Additional observations from a re-analysis of the deposited data

How the results depend on the processing

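Over 10 alternatives, 249 of 310 values of the 31 genes kept their direction and their side of the threshold, and the 5 called genes kept their direction in all. With the ERCC totals, 329 genes were called (22 higher), 1 of the 31 among them (0 higher, 1 lower), and the median of the 31 was -0.75. Without the filter, 1194 of 22155 genes were called (561 higher, 633 lower). Leaving out 1 library each gave 218 to 2172 genes (105 to 1028 higher, 107 to 1144 lower) and 0 to 8 of the 31 (0 to 5 higher, 0 to 3 lower); 127 genes, none of the 31, were called in all 4 of these fits. Limma-voom called 1 of the 31 as lower. The causes were not tested. The lowest count of any of the 31 was that of MYLIP, at 68, and its SE of 0.29 was wider than the median SE of the 31, 0.21; depth was not varied.

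With the replicate block, 4021 genes (30.1%) were called (1998 higher, 2023 lower), and 16 of the 31 (9 higher, 7 lower). Deviations of same-numbered libraries from their group means correlated at 0.47 across genes, and the share of counts on mitochondrial genes was 3.59% and 1.16% in DKO replicates 1 and 2, against 2.53% and 0.448% in control replicates 1 and 2. The labels state no shared culture or day for a number, so the block was not used for the reported values.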
